A study of Homo sapiens with 6 samples.

Results

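RHCE, RHAG, KEL, GYPC, ANK1, EPB42 and HEMGN, 7 of a list of 8 red cell membrane and blood group genes, were followed in K562, an established line from a human chronic myelogenous leukemia with erythroid features. A locus was taken when one of its names was among these genes. This gave 7 of the 62828 loci in the table, of which 6 reached a mean of 1 FPKM (fragments per kilobase of transcript, adjusted for library size) over the 6 libraries. Cells had received siRNA targeting HNRNPU (written hnRNPU in the labels) at 300 nM; the control cells had received control oligos. From each condition, RNA of whole cells, of nuclei and of cytosol was depleted of ribosomal RNA and sequenced. The labels name a separate provider for total RNA-seq without saying which libraries that covers, so the provider and the preparation cannot be told apart. All 6 groups hold 1 library each, so the differences below describe these libraries and have no replicate check or test.

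The red cell membrane is a lipid bilayer held to a spectrin and actin skeleton by protein complexes. RhAG (RHAG) is the partner of RhCE (RHCE) and RhD, which carry the Rh antigens, in one such complex, and band 3 anchors another through ankyrin (ANK1) and protein 4.2 (EPB42). Glycophorin C (GYPC) ties the bilayer to the skeleton through protein 4.1, and KEL is a surface endopeptidase that carries the Kell antigens. HEMGN encodes hemogen, a nuclear protein of erythroid cells and not a membrane protein.

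Sequence bears on the RHCE values, because near-identical genes can exchange fragments. The first 90 coding bases of both Rh genes are shown for this reason, read 5′ to 3′ from GENCODE release 29 transcripts. Capitals mark bases that differ from RHCE in RHD.
RHCE: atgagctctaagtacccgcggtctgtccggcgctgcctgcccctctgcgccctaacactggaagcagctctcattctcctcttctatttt
RHD: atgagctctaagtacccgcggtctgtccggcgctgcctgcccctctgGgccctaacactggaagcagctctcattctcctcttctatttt

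RHD differed from RHCE at 1 of these 90 bases. Over the whole transcript, 10.5% of the 100-base windows of RHCE were found in an RHD transcript. EPB42 shared 14.7% of its windows with AC068724.4. For RHAG, KEL, GYPC, ANK1 and HEMGN the share was 0. Fragments from the shared windows of RHCE and EPB42 cannot be assigned to a single gene name from sequence alone. Whether AC068724.4 is a separate copy or an annotation overlapping EPB42 was not examined.

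A sequence feature that the choice of genes did not use was the GATA motif, the binding letters of GATA1 and related erythroid factors. Promoters of 300 bases, from 250 before to 50 after the start, came from RefSeq on GRCh38.p14 and were searched on both strands for AGATAA and TGATAA, which can share at most 1 base. Of 6 genes with a promoter searched (ANK1 was not included), 5 held a match, and GYPC held none. Over all genes in the table, 19.4% held a match in any promoter. A match is a description of the letters and does not show binding. The promoters of KEL and RHAG are printed because they had the highest ratios of nuclear to cytosolic FPKM of the 7. That of EPB42 is printed because its mean FPKM was the lowest. All are on the minus strand, at chr7:142962314-142962613, chr6:49636790-49637089 and chr15:43220969-43221268, with the motif letters in capitals.
KEL: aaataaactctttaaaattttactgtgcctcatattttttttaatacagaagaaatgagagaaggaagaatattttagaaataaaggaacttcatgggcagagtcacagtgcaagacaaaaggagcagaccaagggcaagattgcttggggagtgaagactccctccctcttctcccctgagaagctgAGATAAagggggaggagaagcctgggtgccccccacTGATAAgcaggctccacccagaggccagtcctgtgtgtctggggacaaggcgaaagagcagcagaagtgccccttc
RHAG: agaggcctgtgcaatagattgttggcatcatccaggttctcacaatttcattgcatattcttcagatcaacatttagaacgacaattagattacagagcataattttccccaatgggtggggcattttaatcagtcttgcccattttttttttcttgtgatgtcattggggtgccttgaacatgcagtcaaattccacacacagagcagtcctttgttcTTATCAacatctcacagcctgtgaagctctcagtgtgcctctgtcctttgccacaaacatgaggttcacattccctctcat
EPB42: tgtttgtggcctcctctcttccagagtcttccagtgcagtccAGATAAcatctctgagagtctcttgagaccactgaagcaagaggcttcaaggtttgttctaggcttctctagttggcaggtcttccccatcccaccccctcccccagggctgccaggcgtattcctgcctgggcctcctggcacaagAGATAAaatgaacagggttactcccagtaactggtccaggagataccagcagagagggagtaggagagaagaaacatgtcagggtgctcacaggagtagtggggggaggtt

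KEL and EPB42 held 2 matches each and RHAG 1. Of the genes not printed, HEMGN held 2 matches in a promoter and 1 in another, and RHCE 1 in each promoter. The RHCE promoters overlap, and the match in them is the same site. At least 2 matches were found in 2.87% of all promoters.

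Depth was uneven. From the steps between low FPKM values, each FPKM per kilobase of transcript was estimated at 40.2 fragments in the knockdown nuclear library, the deepest, and 13.7 in the control cytosolic library, the shallowest. The HNRNPU locus, which also holds HNRNPU-AS1, had 55.3 FPKM in knockdown and 129 FPKM in control whole-cell RNA, 42.99% of control. Its nuclear level was 63.7 FPKM in the knockdown and 163 FPKM in the control (39.0%), and its cytosolic level 34.9 FPKM in the knockdown and 158 FPKM in the control (22.1%). All 10 erythroid marker loci had a mean of at least 1 FPKM, and their sum was 826 to 1875 FPKM in the knockdown libraries and 806 to 2048 FPKM in the control libraries. Most of it came from a merged locus that holds HBG2 and HBE1, at 513 to 1366 FPKM in knockdown and 520 to 1560 FPKM in control libraries. Markers of lymphoid cells summed to 12.6 to 19.3 FPKM in knockdown and 15.0 to 19.6 FPKM in control libraries, mostly CD3D, with MS4A1 listed at 0 throughout. Myeloid markers summed to 2.83 to 3.91 FPKM in knockdown and 3.29 to 3.46 FPKM in control libraries, with ELANE at 0. Stromal, endothelial and epithelial markers, mostly EPCAM and COL1A2, summed to 24.5 to 37.4 FPKM in knockdown and 20.3 to 32.0 FPKM in control libraries, with CDH5 at 0. At a mean of 1 FPKM or more were 2 of 6 lymphoid, 1 of 6 myeloid and 2 of 5 stromal, endothelial and epithelial loci. Their part in the values below was not tested.

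The levels of the 7 loci spread widely. The order by mean FPKM over the 6 libraries was GYPC (97.2), RHAG (67.4), ANK1 (34.98), KEL (7.57), HEMGN (7.39), RHCE (1.92) and EPB42 (0.161). KEL and HEMGN, neighbours in this order, lay within their spread over libraries: KEL was the higher in whole-cell and nuclear RNA and HEMGN in cytosolic RNA, in both conditions. FPKM is per length, so the order between genes also rests on the transcript lengths used, which are not given. Coding transcripts of ANK1, for example, run from 622 to 8478 bases. The bars of FPKM by library show that knockdown and control were of like height for most loci. In FPKM as deposited, the preparation moved the level more than the siRNA did for KEL, RHAG, GYPC, ANK1 and HEMGN. For HEMGN this depended on the scaling. Libraries were also brought to equal totals, leaving out mitochondrial and small RNAs. The log2 nuclear-to-cytosolic ratio of HEMGN was then 0.13 in knockdown and 0.40 in control. Its log2 ratio of knockdown to control was then -0.50 in whole-cell RNA.

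**Figure D1:**
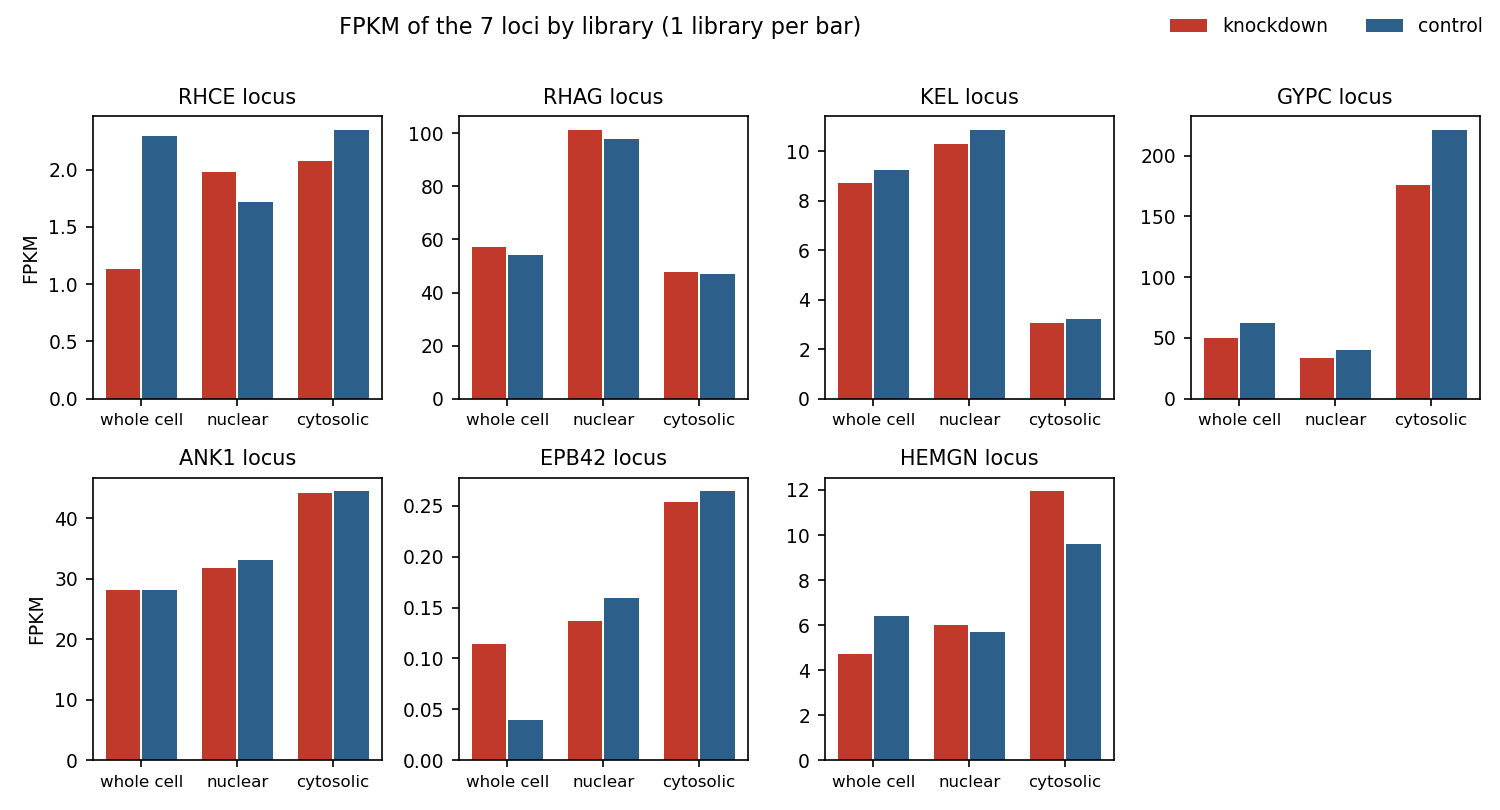
FPKM (vertical axis, from 0, scaled separately for each locus) of the 7 loci in whole-cell, nuclear and cytosolic RNA; each bar is 1 library, red for HNRNPU knockdown and blue for control. GYPC is highest in cytosolic RNA and KEL and RHAG in nuclear RNA, while RHCE is lower in the knockdown than in the control in whole-cell RNA.

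Among the Rh complex genes, RHAG, which RhCE and RhD need to reach the surface, differed little between conditions. The RHAG locus (chromosome 6, 49572870 to 49604552 on hg19) had 57.0 FPKM in knockdown and 54.0 FPKM in control whole-cell RNA. Its nuclear level was 101 FPKM in the knockdown and 97.6 FPKM in the control, and its cytosolic level 47.8 FPKM in the knockdown and 47.0 FPKM in the control. The log2 ratio of knockdown to control, taken as a difference of log2(FPKM + 0.1), was 0.08 for whole cells, 0.05 for nuclei and 0.02 for cytosol. Each 95% counting interval, which covers only the error of about 654 to 4127 fragments a library and not the spread between cultures, held 0.

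RHCE, the carrier of the C/c and E/e antigens, had 1.13 FPKM in knockdown and 2.29 FPKM in control whole-cell RNA (chromosome 1, 25688739 to 25756683 on hg19). Its log2 ratio was -0.96 (95% counting interval -1.84 to -0.28), just short of the 2-fold size rule of 1 log2 unit used here. With other pseudocounts and library scalings it ranged from -1.04 to -0.63, on both sides of that rule. The fractions did not share this value. Nuclear RNA had 1.98 FPKM in knockdown and 1.72 FPKM in control (0.19, interval -0.38 to 0.86). Cytosolic RNA had 2.08 FPKM in knockdown and 2.35 FPKM in control (-0.17, interval -0.91 to 0.62). RHCE rested on about 21.3 to 77.5 fragments a library. The paralog RHD, which carries the D antigen, had 0.965 FPKM in knockdown and 1.40 FPKM in control whole-cell RNA (-0.49, interval -1.34 to 0.24), and log2 ratios of 0.03 in nuclear and -0.42 in cytosolic RNA.

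KEL (chromosome 7, 142638200 to 142659768 on hg19) had nearly the same values in both conditions. It had 8.73 FPKM in knockdown and 9.24 FPKM in control whole-cell RNA. Nuclei held 10.3 FPKM in the knockdown and 10.9 FPKM in the control, and cytosol 3.05 FPKM in the knockdown and 3.24 FPKM in the control. The log2 ratios were all -0.08, and each interval held 0. In cytosolic RNA the interval was -0.48 to 0.29, so differences inside these bounds were not detectable there.

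GYPC, which carries the Gerbich antigens, was lower in the knockdown in all 3 preparations (chromosome 2, 127413508 to 127454246 on hg19). Whole-cell RNA had 50.2 FPKM in knockdown and 62.6 FPKM in control, or 80.2% of control. Nuclear RNA had 33.4 FPKM in knockdown and 40.2 FPKM in control (83.1%), and cytosolic RNA 176 FPKM in knockdown and 221 FPKM in control (79.5%). The log2 ratios were -0.32 (interval -0.44 to -0.20), -0.27 (-0.39 to -0.14) and -0.33 (-0.41 to -0.26). GYPC was thus the only one of the 6 loci above the minimum that lay below 0 beyond its counting interval in all 3 preparations. The share of all loci that did so was not counted. GYPC rested on about 805 to 3057 fragments a library and RHCE on 21.3 to 77.5, so equal differences exceed the interval more easily for GYPC. Differences of this size were common: 10.3%, 16.3% and 12.1% of all loci had a lower ratio than GYPC in whole-cell, nuclear and cytosolic RNA.

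**Figure D2:**
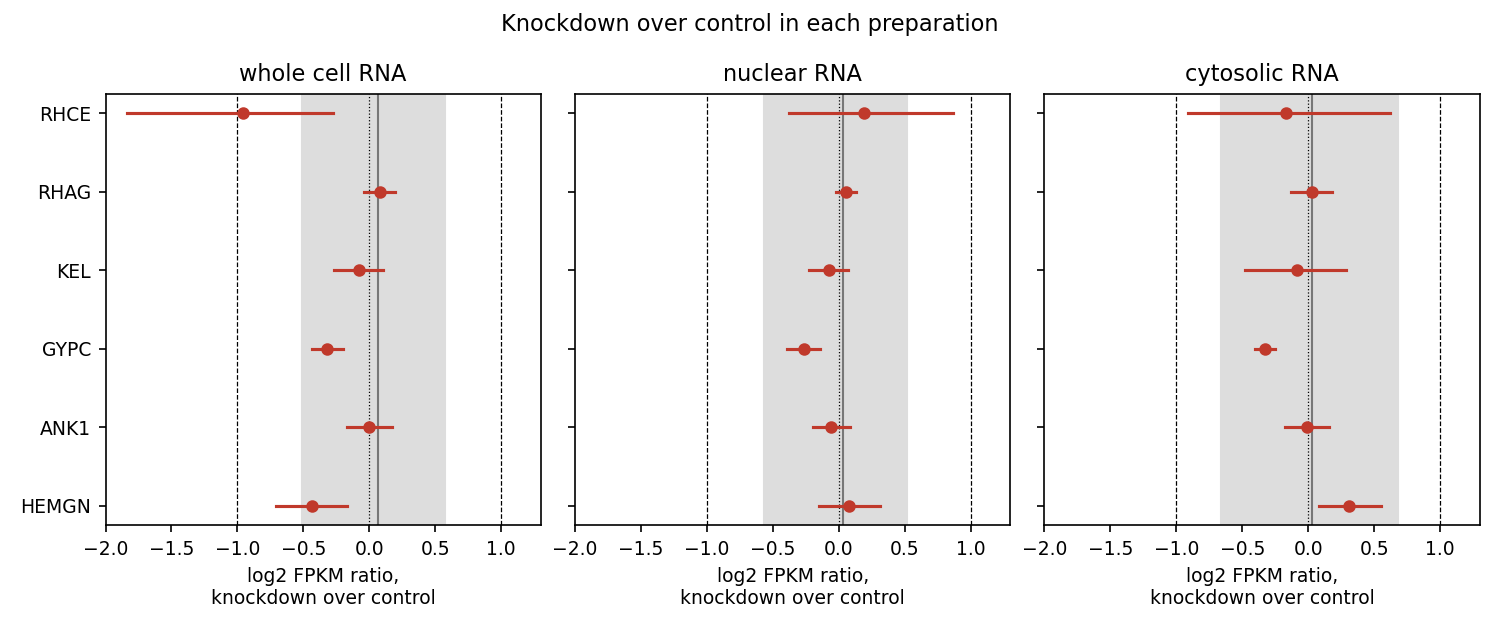
Log2 FPKM ratio of knockdown over control (horizontal axis) for the 6 loci averaging at least 1 FPKM, in each preparation. Points are single-library ratios, red lines the 95% counting intervals, the grey band the range from the 5th to the 95th percentile of all loci, the grey line their median, and dashed lines the 2-fold rule; RHCE lies left of the band in whole-cell RNA, and the other points lie inside the bands.

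Of the genes that anchor the skeleton, ANK1 differed little between conditions. Ankyrin links band 3 to spectrin. The ANK1 locus (chromosome 8, 41510738 to 41754280 on hg19) had 28.1 FPKM in knockdown and 28.2 FPKM in control whole-cell RNA. In nuclei it had 31.8 FPKM with knockdown and 33.1 FPKM in the control, and in cytosol 44.2 FPKM with knockdown and 44.5 FPKM in the control. Its log2 ratio was between -0.06 and 0 in each preparation, and each counting interval held 0. In whole-cell RNA that interval was -0.17 to 0.17. The intervals of ANK1 take a length of 1185 bases, the median of its coding transcripts, which run from 622 to 8478 bases. A longer length would narrow them, and other lengths were not tried.

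EPB42 was close to the detection limit in every library. It had 0.115 FPKM in knockdown and 0.0397 FPKM in control whole-cell RNA (chromosome 15, 43398422 to 43513481 on hg19). The nuclear libraries had 0.137 FPKM in knockdown and 0.159 FPKM in control, and the cytosolic ones 0.254 FPKM in knockdown and 0.265 FPKM in control. About 2.01 to 11.7 fragments a library stood behind these values. The whole-cell interval was -0.99 to 5.02, so no difference could be seen at this depth. SLC4A1, the band 3 gene, in a locus merged with AC003102.1, was also below the minimum, with a mean of 0.582 FPKM.

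HEMGN (chromosome 9, 100689072 to 100707138 on hg19) had 4.72 FPKM in knockdown and 6.41 FPKM in control whole-cell RNA (log2 ratio -0.43, interval -0.71 to -0.17). Cytosolic RNA differed the other way, with 11.95 FPKM in knockdown and 9.60 FPKM in control (0.31, interval 0.08 to 0.55). Nuclear RNA had 5.99 FPKM in knockdown and 5.68 FPKM in control (0.08, interval -0.15 to 0.31). The whole-cell libraries of HEMGN were thus apart in the opposite direction to the cytosolic ones. In the knockdown, whole-cell FPKM lay below both fractions for HEMGN, RHCE and ANK1, 3 of the 6 loci, against 48.4% of all loci. In the control it did so for ANK1 alone, against 49.9% of all loci.

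Over the 6 loci above the minimum, the median log2 ratio was -0.20 in whole-cell RNA, with 1 locus above and 5 below 0, against a median of 0.06 and 39.0% below 0 over all 12828 loci that reached a mean of 1 FPKM. With no minimum, or with a minimum of 5 FPKM, the median was -0.081. The medians were 0.00 in nuclear RNA and -0.05 in cytosolic RNA, against 0.03 over all loci in both. Past the 2-fold rule were 0 of the 6 loci in each preparation. Over all loci, 1.29% were at least 2-fold lower and 1.36% higher in whole-cell RNA. In nuclei 1.5% were lower and 1.04% higher. In cytosol 2.63% were lower and 2.62% higher, so with 6 loci a count of 0 is near the background. In bulk RNA, fewer cells that express a gene and less of its RNA per cell cannot be told apart.

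The series asks about the nuclear localization of long noncoding RNAs. The same libraries show where these coding RNAs lay, and the 6 loci differed more in where their RNA lay than in how it differed with knockdown. KEL RNA was the most nuclear, with a ratio of nuclear to cytosolic FPKM of 3.37 in knockdown and 3.35 in control cells. RHAG followed with 2.12 in knockdown and 2.08 in control. GYPC lay at the other end with 0.190 in knockdown and 0.182 in control, which put it among the lowest 0.959% of all loci in the knockdown and 1.28% in the control. All 3 encode proteins that cross the membrane.

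The other loci lay between these. The ratio of RHCE was 0.951 in knockdown and 0.733 in control. ANK1 had 0.719 in knockdown and 0.742 in control, and HEMGN 0.501 in knockdown and 0.591 in control. EPB42, below the minimum, had 0.540 in knockdown and 0.602 in control. On the log2 scale ANK1 was 0.01 from the median of all loci in both conditions. By the same measure 2 of the 6 loci were at least 2-fold nuclear in the knockdown and 2 in the control, against 14.4% and 16% of all loci. At least 2-fold cytosolic was 1 locus in each condition, against 28.4% and 29.1%. Absolute ratios depend on how the nuclear and cytosolic libraries are scaled. With libraries brought to equal totals, leaving out mitochondrial and small RNAs, the median log2 ratio of the 6 loci was 0.83 in knockdown and 0.70 in control, against -0.27 in knockdown and -0.43 in control as deposited.

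**Figure D3:**
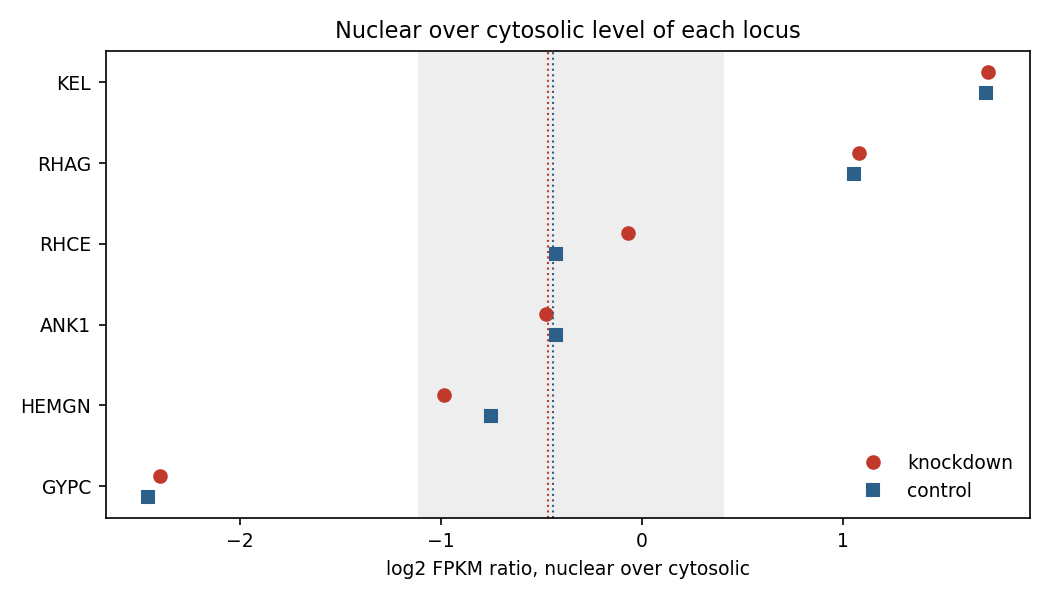
Log2 ratio of nuclear to cytosolic FPKM (horizontal axis) for the 6 loci averaging at least 1 FPKM, ordered by the control; red circles are HNRNPU knockdown and blue squares control, 1 pair of libraries each. Dotted lines are the medians of all loci in each condition and the grey band is the interquartile range of all loci in the control; KEL and RHAG lie right of the band and GYPC left of it in both conditions.

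The localization shift, the log2 nuclear-to-cytosolic ratio in knockdown minus that in control, was under 2-fold for all 6. It was 0.36 for RHCE (counting interval -0.57 to 1.28) and -0.24 for HEMGN (-0.56 to 0.09). The shift was 0.06 for GYPC (-0.08 to 0.21), -0.05 for ANK1 (-0.26 to 0.17), 0.03 for RHAG (-0.14 to 0.20) and 0.01 for KEL (-0.39 to 0.40). Every interval held 0. The interval of RHCE, the least abundant, also held shifts of over 2-fold to the nucleus. None of the 6 passed the 2-fold rule, against 3.27% of all loci shifted to the nucleus and 3.83% to the cytosol. The median shift was 0.02 for the 6 loci and 0.00 for all loci.

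Loci with the most similar pattern over the 6 libraries were sought by the root mean square difference of log2(FPKM + 0.1), each centred on its own mean, among 11817 named loci. For RHCE it was SPRY4 (difference 0.10), with 5.19 FPKM in knockdown and 8.23 FPKM in control whole-cell RNA. SPRY4 shares the low whole-cell value of RHCE in the knockdown. It was NFE2L1 for RHAG (0.04), CTC-559E9.6 for KEL (0.05), SLC25A39 for GYPC (0.09) and SIK3 for ANK1 (0.04). Within 0.2 of the pattern lay 37 loci for RHCE and 74 for KEL, but 2339 for ANK1. Among the 6 loci themselves, ANK1 and HEMGN were nearest to each other (0.24), while the nearest to GYPC was at 0.67.

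The wider set of red cell membrane and blood group genes had 55 other loci in 4 lists, of which 41 had a mean of at least 1 FPKM. The median log2 ratio of these 41 was -0.05 for whole cells, -0.05 for nuclei and -0.05 for cytosol. None was past the 2-fold rule in whole-cell or nuclear RNA, and 2 of the 41 were at least 2-fold lower in cytosolic RNA, CD44 and GCNT2, against 2.63% of all loci. With a pseudocount of 1, or with a minimum of 5 FPKM, 0 were. CD44 is named after its values were seen, and GCNT2 is among the most abundant of its list. The shift of CD44, 1.21, was the only one of the 41 past 2-fold, against 3.27% of all loci shifted that far to the nucleus, and with the same pseudocount or minimum 0 were. CD44, the carrier of the Indian antigens, had 1.13 FPKM in knockdown and 2.56 FPKM in control cytosolic RNA (-1.11). In whole-cell RNA it had 0.884 FPKM in knockdown and 0.534 FPKM in control (0.63, counting interval -0.33 to 1.85). GCNT2, which builds the I antigen, had 1.64 FPKM in knockdown and 3.51 FPKM in control cytosolic RNA (-1.06).

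Of the skeleton and band 3 list, 12 of 13 loci passed the minimum, with median log2 ratios of 0.05, 0.12 and 0.04 in whole-cell, nuclear and cytosolic RNA. EPB41, which encodes protein 4.1, had 68.7 FPKM in knockdown and 85.2 FPKM in control whole-cell RNA (-0.31), and 67.9 FPKM in knockdown and 58.1 FPKM in control nuclear RNA (0.22). MPP1, a partner of protein 4.1 and glycophorin C, had 40.8 FPKM in knockdown and 38.3 FPKM in control whole-cell RNA (0.09). SPTBN1, a spectrin, had log2 ratios of 0.02, 0.17 and 0.16, and TMOD3, which caps actin filaments, 0.28, 0.25 and 0.22.

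Of the Rh and glycophorin partners, 5 of 7 loci passed the minimum and their medians were 0.01, 0.03 and 0.05. CD47, part of the Rh complex, had 17.4 FPKM in knockdown and 15.7 FPKM in control whole-cell RNA (0.14), a larger value than its nuclear (-0.04) and cytosolic (0.07) ratios. ICAM4, the LW antigen, had 7.38 FPKM in knockdown and 7.74 FPKM in control whole-cell RNA (-0.07). XK, the partner of KEL, had 2.86 FPKM in knockdown and 2.84 FPKM in control whole-cell RNA (0.01), and 2.72 FPKM in knockdown and 2.05 FPKM in control nuclear RNA (0.39). GYPE, a glycophorin gene, had 4.52 FPKM in knockdown and 4.01 FPKM in control whole-cell RNA (0.17), with -0.25 in nuclear and -0.09 in cytosolic RNA. Each counting interval of GYPE held 0, and the sequence it shares with other genes was not measured. The lowest whole-cell ratio of the 5 was that of RHD, given above.

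Of the other blood group carriers, 20 of 26 loci passed the minimum, with medians of -0.05, -0.07 and -0.07. BSG, which carries the Ok antigen, had 148 FPKM in knockdown and 141 FPKM in control whole-cell RNA (0.07). PIEZO1, a mechanosensitive channel, had log2 ratios of -0.04, -0.35 and -0.25, EMP3 0.16, 0.08 and 0.29, and SLC29A1, a nucleoside transporter, -0.19, -0.08 and -0.02. All 4 blood group enzyme loci above the minimum, of 9, were below 0 in each preparation, with medians of -0.33, -0.21 and -0.59. Of all loci, 39.0% were below 0 for whole cells, 45.9% for nuclei and 44.0% for cytosol. The counting interval held 0 for ABO in both fractions, for GCNT2 in whole-cell and nuclear RNA and for PIGG in cytosolic RNA. FUT1, which makes the H antigen, had 4.62 FPKM in knockdown and 6.03 FPKM in control whole-cell RNA (-0.38). The ABO locus, merged with RP11-430N14.4, had 3.01 FPKM in knockdown and 4.42 FPKM in control whole-cell RNA (-0.54). PIGG, which carries out a step of GPI anchor synthesis, had 9.64 FPKM in knockdown and 11.7 FPKM in control whole-cell RNA (-0.28).

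**Figure D4:**
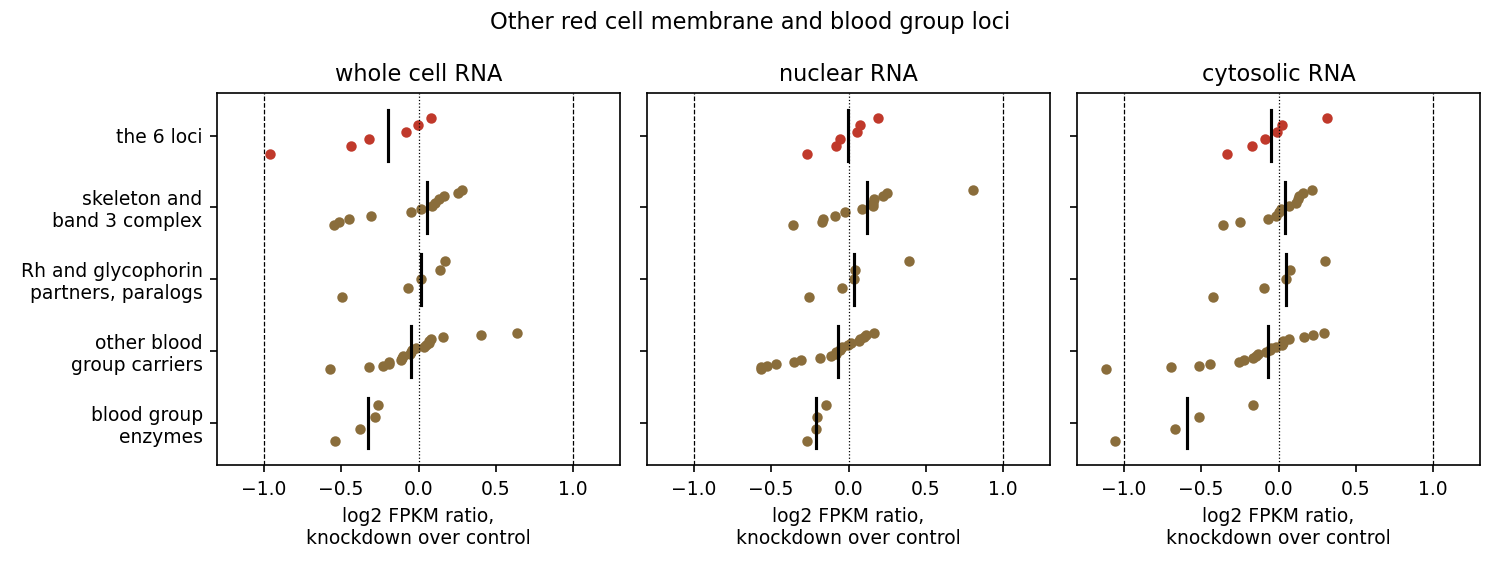
Log2 FPKM ratio of knockdown over control (horizontal axis) for the 6 loci (red) and for the 41 other loci averaging at least 1 FPKM (brown), by list and preparation; each point is 1 locus and black bars are medians. Dashed lines mark the 2-fold rule, which 0 of the red loci pass in any preparation and 2 of the brown loci pass in cytosolic RNA.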

How the data were processed

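The authors deposited FPKM values, 1 column per library. That unit is inferred from the value range and the tools, because the table's header is silent on it. Tools listed in the submitters' processing notes, without their roles, are TopHat2 2.0.13, Cuffdiff 2.2.1, CASAVA and FastQC, and the builds are hg19 and mm9. None of the sources used here gives the library scaling, the annotation or the strand setting of the counting. Per the labels' protocols, libraries were strand-specific.

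Ratios are differences of log2(FPKM + 0.1) and understate the change of low loci. Background values cover 12828 loci whose mean reached 1 FPKM, after 23 copies of X loci on Y were left out. Fragments were estimated from the steps between low FPKM values of single-exon loci, with 240 bases taken off each length (the value with the sharpest steps), and from the median length of GENCODE 29 basic coding transcripts. Ratio intervals are 95% exact binomial intervals on these fragments, and intervals of the shift use the Poisson error of the 4 fragment numbers. They cover counting error only and rest on estimated lengths.

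No test was run, since each group has 1 library and the sources do not say whether the preparations came from separate cultures. Besides the 7 genes, the text names RHD, the 4 most abundant loci of each list, any list locus 2-fold apart in one direction in at least 2 preparations, and the most similar locus of each. A few other list loci, such as CD44 and ADD3, are named outside this rule. Of the 8 listed genes 1 is not reported here, nor are some loci of the lists and of the search for similar loci, and counts and medians of the genes and lists leave them out. The genes and lists were chosen with earlier results of these data known. Other pseudocounts, minimums, scalings and locus sums were tried. The ratios and the estimate of the steps between FPKM values were tested on simulated data. The bases taken off, the fragment numbers and the counting intervals were not. Calculations used scipy 1.17.1, numpy 2.4.6 and pandas 2.3.3 under Python 3.11.15, with figures from matplotlib 3.10.9.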

Additional observations from a re-analysis of the deposited data

Results flagged for a closer look

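For HEMGN, knockdown and control were apart in opposite directions in 2 preparations, each beyond its counting interval. The log2 ratio of knockdown to control was -0.43 in whole-cell RNA and 0.31 in cytosolic RNA. This was not particular to HEMGN. Among the other listed loci, EPB41 had -0.31 (interval -0.36 to -0.26) in whole-cell RNA and 0.22 (0.18 to 0.27) in nuclear RNA. ADD3 had -0.51 (-0.64 to -0.39) and 0.80 (0.68 to 0.93) in the same preparations. The share of all loci with such a pattern was not counted. With 1 library per group the difference between the preparations was not tested.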

How the results depend on the processing

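Ratios of knockdown to control kept their sign for the 6 loci under each alternative that gave them a value (RHCE has none with a minimum of 5 FPKM), except RHAG in cytosolic RNA, which turned to -0.01 with equal library medians. Shifts near 0 changed sign for RHAG under 1 alternative and KEL under 2. RHCE passed the 2-fold rule in whole-cell RNA, giving 1 locus at least 2-fold lower, with a pseudocount of 0.01, with equal library medians and with equal totals (mitochondrial and small RNAs left out), and had -0.63 with a pseudocount of 1. The whole-cell median was -0.081 with no minimum and with a minimum mean of 5 FPKM. The median nuclear-to-cytosolic ratio was 0.17 in knockdown and -0.026 in control with equal library medians, and 0.83 in knockdown and 0.70 in control with equal totals. In the knockdown it was -0.47 with no minimum and with a minimum of 5 FPKM. Among the other listed loci, with no minimum 1 was at least 2-fold lower in whole-cell and 1 in nuclear RNA. With a pseudocount of 1 or a minimum of 5 FPKM, 0 were 2-fold lower in cytosolic RNA and 0 shifted 2-fold to the nucleus, against 2 and 1. No paired analysis was possible because the labels carry no replicate numbers to pair on, and the 3 preparations are different RNA and were not used as replicates. Depth limits RHCE and EPB42 most.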

Other observations

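Spectrin RNAs, described here after their values were seen, differed in where they lay. SPTAN1, the non-erythroid alpha spectrin, had a log2 ratio of nuclear to cytosolic FPKM of 3.25 in knockdown and 3.22 in control cells. SPTBN1 had 2.70 in knockdown and 2.69 in control. SPTB, the erythroid beta spectrin, had 0.04 in knockdown and 0.22 in control. Ratios of at least 1 were found for 14.4% of all loci in the knockdown and 16% in the control. ADD3, an adducin of the spectrin and actin junction, was also picked after its values were seen. Its nuclear log2 ratio of knockdown to control was the highest of the 41 other listed loci averaging at least 1 FPKM. ADD3 had 15.7 FPKM in knockdown and 22.4 FPKM in control whole-cell RNA, a log2 ratio of -0.51. Its nuclear RNA had 20.4 FPKM in knockdown and 11.7 FPKM in control, a log2 ratio of 0.80. In cytosolic RNA it had 24.8 FPKM in knockdown and 23.7 FPKM in control, a log2 ratio of 0.07 (counting interval -0.06 to 0.19). Over all loci the 5th percentile was -0.51 in whole-cell RNA and the 95th 0.52 in nuclear RNA.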
